A study of Mus musculus with 58 samples.

Results

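Sgce encodes epsilon-sarcoglycan, a membrane glycoprotein of the sarcoglycan family, and was represented by 1 CpG of the 382 CpGs (381 genes) on a custom Illumina GoldenGate methylation array. The CpG was found by its gene name in the deposited table, which gives it the number 397. The sources used here do not give the meaning of that number, the sequence of the probe or the genome build, so no sequence and no position are printed. The RefSeq table for GRCm38.p6 places the gene on chromosome 6, where 24 of the array's CpGs lie, Sgce included. Nor do those sources say whether the measured CpG lies inside the imprinted control region of the gene.

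Imprinted genes are expressed mainly from the copy inherited from a given parent, and the silent copy often carries DNA methylation that was laid down in the germ line. In Sgce the maternal copy is methylated at the promoter and silent, and the paternal copy is expressed; the neighbouring gene Peg10 shares that methylated region. Mutations of human SGCE cause myoclonus-dystonia, a movement disorder linked to circuits of the basal ganglia and cerebellum. At a CpG methylated on the maternal and not on the paternal copy, a beta value of 0.5 is expected. The beta value is the fraction of methylated signal at a CpG, with 0 for none and 1 for full methylation.

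Brain DNA was measured in 57 mouse samples. The 4 samples of genotype 3TG, on the background C57BL/6-129, were 3 of frontal cortex (FC_3TG) and 1 of CA1 (CA1_3TG). Wild-type frontal cortex on C57BL/6 (FC_WT) had 2 samples. The other 51 samples came from healthy C57BL/6 mice, with 6 each of Caudate-Putamen (CPU), Granular Cell Layer (GCL) and Substantia Nigra (SN), 5 each of basolateral amygdala (BLA), Dentatus Gyrus (DG), Globus Pallidus (GP), Hypothalamus (HYP) and Thalamus (TH), and 4 each of CA3 and Purkinje Cells (PC). FC_WT and the other 10 regions make up the 53 samples of 11 regions compared below. The labels do not spell out the 3TG alleles, and they give neither the age of the mice nor the animal behind each sample. The spread behind each p-value is that between the deposited samples, which may be technical. A 3TG sample differs from FC_WT in genetic background as well as in genotype, and effects of these cannot be told apart.

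All samples but FC_WT and FC_3TG 2_a also carry a code such as F1 or M3, whose letter the labels do not explain. DG F7, F8 and F9 and both FC_WT samples have titles of another form than the remaining region samples. On the 17 X-linked CpGs the mean beta was 0.340 ± 0.019 in the 25 samples coded F1 to F4 of the 10 regions other than frontal cortex and 0.505 ± 0.020 in the 23 samples coded M (SD). DG F7 to F9 carry the letter F but averaged 0.501 ± 0.031 (SD, n = 3) there, at the level of the M-coded samples. The 3TG samples with an F lay between these levels, at 0.457 in CA1_3TG F2, 0.454 in FC_3TG F10 and 0.439 in FC_3TG F12, as did FC_3TG 2_a (0.454) and FC_WT (mean 0.472), which carry no letter. Results that rest on DG F7 to F9 or FC_WT are therefore given with and without them where such a fit was run. Array mean beta lay between 0.249 and 0.289 in all 57 samples. Among regional markers, Gabra6, a GABA receptor subunit of cerebellar granule cells, had its lowest regional mean beta in GCL (0.237) and its highest in FC_WT (0.580).

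Sgce was methylated well above 0.5 in every region. Its beta averaged 0.671 ± 0.044 over the 53 samples (SD), from 0.494 to 0.803, and 52 of the 53 lay above 0.5. With the 3TG samples included, 56 of 57 did, and the exception was TH F4 at 0.494. Fitted levels ran from FC_WT, with a 95% interval of 0.721 to 0.804, to TH, with an interval of 0.588 to 0.656. In limma's moderated test on the log2(beta/(1 - beta)) scale, adjusted over all CpGs and regions, each of the 11 regions lay above 0.5, with adjusted p-values between 8.16e-18 for DG and 1.13e-08 for TH.

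On this array a distance from 0.5 is the rule: 95.5% of the 4202 tests of a CpG in a region were called. Only 27 of the 382 CpGs, or 7.07%, had a mean beta between 0.4 and 0.6, and Sgce was not among them. Its mean was higher than that of 83.2% of the CpGs, whose median was 0.110, and 63 CpGs stood above it. Within single arrays Sgce ranked above 76.4% to 89.5% of the CpGs. No DNA of known methylation was analysed here, so the scale of beta at this probe is not anchored, and a beta above 0.5 was not tested against a probe's own bias.

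**Figure D1:**
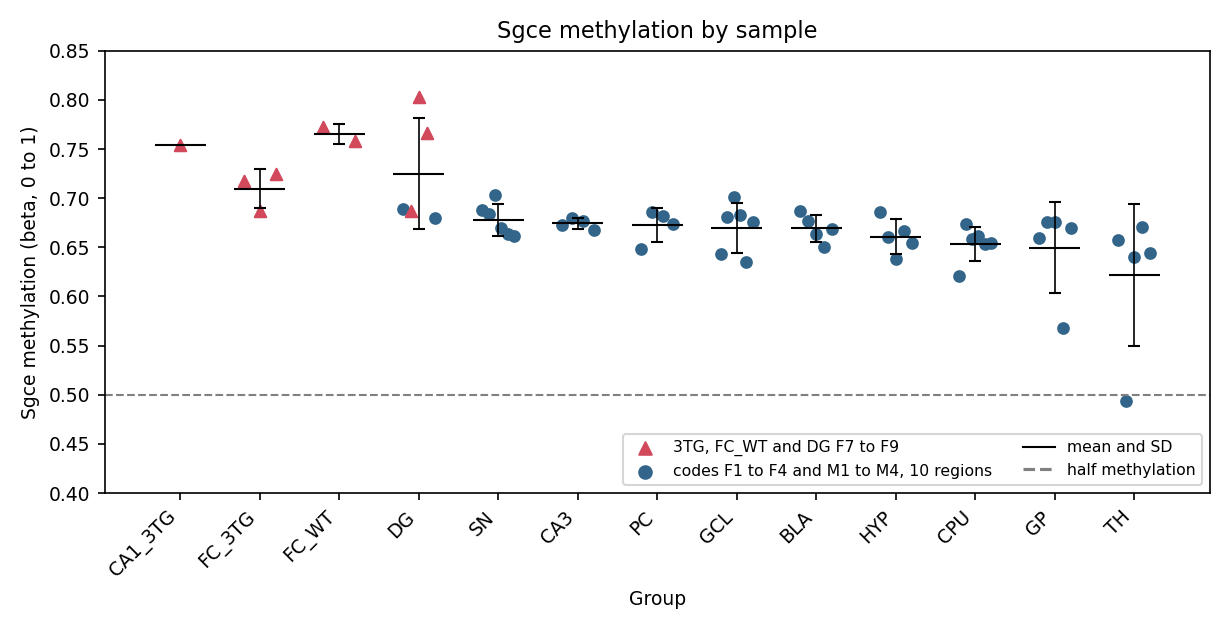
Beta of the Sgce CpG (vertical axis, 0 to 1) in each sample, by group; horizontal bars and whiskers are the group mean and SD, and the dashed line marks 0.5. The 3TG, FC_WT and DG F7 to F9 samples (triangles) lie between 0.687 and 0.803, and only TH F4 (0.494) falls under the line.

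Frontal cortex and dentate gyrus gave the highest regional means, but FC_WT and DG F7 to F9 have titles of another form. For FC_WT, region and title form cannot be told apart. The FC_WT samples had a beta of 0.772 and 0.758, against a mean of 0.667 over the other 10 regional means. Both lay above every sample of the other regions, apart from DG F8, which lay above both, and DG F9, which lay between them. DG samples had 0.689 in F3, 0.680 in M2, 0.687 in F7, 0.803 in F8 and 0.767 in F9, against a mean of 0.671 over the other 10 regions. The high DG values came from F8 and F9, while F7 lay inside the ranges of SN and GCL.

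Most regions formed a narrow middle group. SN, which holds the dopamine neurons that project to the striatum, ranged from 0.661 to 0.703 with a median of 0.677. In CA3 the samples had 0.672, 0.680, 0.677 and 0.668, and in PC 0.648, 0.686, 0.682 and 0.673. These 4 CA3 samples had the smallest SD of the groups of at least 3 samples, 0.0055. GCL ranged from 0.635 to 0.701 with a median of 0.678. BLA samples had 0.687, 0.677, 0.664, 0.650 and 0.668, and HYP samples 0.686, 0.660, 0.638, 0.666 and 0.654. The samples of these 6 regions overlapped with each other throughout.

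CPU, GP and TH gave the lowest means. CPU, the input nucleus of the basal ganglia, ranged from 0.621 to 0.673 with a median of 0.656. GP samples had 0.659, 0.676, 0.676 and 0.670 in F1, F2, F4 and M4, and 0.568 in M3. TH samples had 0.657, 0.640, 0.671 and 0.645 in F2, M1, M3 and M4, and 0.494 in F4. In both GP and TH the other 4 samples lay inside the range of the middle group, and a single sample lay far below them.

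The 11 regions differed as a set in limma's F-test (F = 4.32, adjusted p = 0.00100, Benjamini-Hochberg over 382 CpGs), as did 44.5% of all CpGs, among which Sgce ranked 102nd by p. The call rested on few samples. Without FC_WT and DG F7 to F9 the adjusted p was 0.335 over the 10 remaining regions, where 29.1% of CpGs were still called, and it was 0.448 with the code as a replicate block, a fit that leaves out FC_WT.

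FC_WT rose above the other 10 regions at Sgce, with a mean of 0.765 ± 0.010 (SD, n = 2), a log2 difference of 0.69 (SE 0.17) and a limma adjusted p of 0.00138, in a contrast that called 31.7% of CpGs. Without FC_WT 1_a the difference was 0.63 and no longer called, and without FC_WT 3 it was 0.75 and still called. Each of these fits rests on a single FC_WT sample. DG rose as well, with 0.725 ± 0.056 (SD, n = 5), a log2 difference of 0.38 (SE 0.11) and a limma adjusted p of 0.00911, where 24.1% of CpGs were called. This call was lost without F8 (0.23, adjusted p = 0.187), without F9 (0.31, adjusted p = 0.0874) and without FC_WT and DG F7 to F9 (0.15, adjusted p = 0.807). In the last of these settings only 3 CpGs on the array were called for DG. With the replicate block the difference was 0.19, but DG rests on a single sample in that fit, which cannot test its rise. DG F7 to F9 averaged 0.752 ± 0.059 (SD, n = 3) and the DG samples F3 and M2 0.684 ± 0.006 (SD, n = 2), and their ranges overlapped.

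TH was the region that fell, with 0.621 ± 0.072 (SD, n = 5) against 0.682 in the others, a log2 difference of -0.39 (SE 0.11) and a limma adjusted p of 0.0166, where 7.07% of CpGs were called. Without TH F4 the difference was -0.20 with an adjusted p of 0.441, and TH averaged 0.653 ± 0.014 (SD, n = 4). Without FC_WT alone, a setting added after seeing the data, the difference was -0.32 with an adjusted p of 0.0722, and without FC_WT and DG F7 to F9 the adjusted p was 0.0619. The fits with the code letter as a covariate (adjusted p = 0.0964) and with the replicate block (0.121) also leave out FC_WT. GP without M3 averaged 0.670 ± 0.008 (SD, n = 4).

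No other region was called against the rest at Sgce, with limma adjusted p-values from 0.535 (CPU) to 0.992 (SN). Those contrasts called 46.6% of CpGs for PC, 22.3% for GCL, 14.9% for SN, 9.95% for CPU and for HYP, 6.81% for BLA, 2.09% for CA3 and 0% for GP, where 18 CpGs had an unadjusted p under 0.05. PC, the cells whose contrast called the largest share of CpGs, had 0.672 ± 0.017 at Sgce (SD, n = 4), against 0.677 in the others.

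Of the 55 pairs of regions 14 were called at Sgce, against 14% of all 21010 tests of a CpG and a pair. Every called pair had FC_WT or DG as its higher member. Pairs of FC_WT with a region other than DG differ in title form as well as in region. FC_WT was called above each region but DG, and the largest difference was FC_WT minus TH at 0.98 (SE 0.19, adjusted p = 0.000184 by limma). Between FC_WT and DG the log2 difference was 0.28 with a 95% interval of -0.11 to 0.67 (limma adjusted p = 0.422). DG was called above TH (0.70, limma adjusted p = 0.000423), CPU, GP, HYP and GCL, the last at an adjusted p of 0.0486.

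In the order FC_WT, DG, SN, CA3, PC, GCL, BLA, HYP, CPU, GP, TH 0 of the 10 pairs of neighbours differed beyond their spread by limma, with 1, DG and SN, at an unadjusted p under 0.05. Between CPU and GP, both nuclei of the basal ganglia, the log2 difference was 0.02 with a 95% interval of -0.26 to 0.30. Between PC and GCL, layers of the cerebellar cortex, it was 0.02 with an interval of -0.29 to 0.32. Without FC_WT 1_a 6 pairs were called, and without FC_WT and DG F7 to F9 0 of the 45 remaining pairs were, with 6 at an unadjusted p under 0.05. In the fit with the replicate block 0 of 45 pairs were called, and 5 had an unadjusted p under 0.05. Pairs with DG rest on a single DG sample in that fit.

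**Figure D2:**
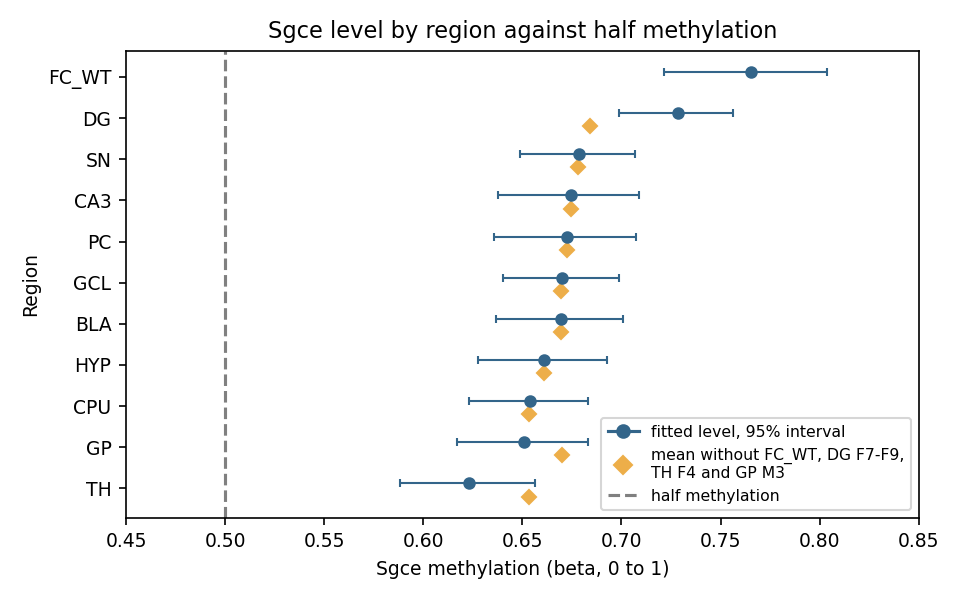
Fitted beta of Sgce per region (circles, with 95% intervals from the fit over 53 samples) and regional means after FC_WT, DG F7 to F9, TH F4 and GP M3 are left out (diamonds); the dashed line marks 0.5. The intervals run from 0.588 at their lowest (TH) to 0.804 at their highest (FC_WT), and the diamonds lie between 0.653 and 0.684.

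With those 7 samples left out, a selection made after their values were seen, 46 samples of 10 regions remained, and the regional means of Sgce spanned 0.0311, from 0.653 in TH to 0.684 in DG. Over the 102 CpGs with a mean beta between 0.2 and 0.8 the median span was then 0.130, and 3 CpGs had a smaller one. The left-out samples include the highest and lowest values of Sgce and were not picked by the values of other CpGs. This comparison therefore favours a narrow span at Sgce and cannot rank it. Over all 53 samples the span of Sgce was 0.144, against a median of 0.171, and 42 CpGs had a smaller one. Within regions the residual SD of Sgce was 0.23 on the log2 scale, against a median of 0.32 over these CpGs, of which 20 had a smaller one. The F-test over the 46 samples gave a limma adjusted p of 0.535.

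DNA of a brain region comes from a mixture of cells, so a shift in the shares of cell types and a change within cells cannot be told apart. The array held 2 of 6 listed astrocyte markers, 7 of 9 oligodendrocyte markers and 3 of 9 neuronal markers, of which 2, 2 and 1 were called in the F-test over regions, where 44.5% of all CpGs were. The summed beta of the astrocyte genes Gfap and Slc1a3 was 0.871 to 0.897 in FC_WT, 0.441 to 0.846 in DG and 1.01 to 1.08 in TH, against 0.648 to 1.07 in the other 8 regions. Within DG it was 0.441 to 0.655 in F7 to F9 and 0.790 to 0.846 in F3 and M2. In TH F4 it was 1.06, inside the range of TH. The sum over 6 autosomal oligodendrocyte CpGs was 0.952 to 1.03 in FC_WT, 0.934 to 1.33 in DG and 1.13 to 1.33 in TH, against 1.07 to 1.34 elsewhere. TH F4 had 1.33 there, the highest of TH. Within DG that sum was 0.934 to 1.33 in F7 to F9 and 1.06 to 1.20 in F3 and M2, so these overlapped. The neuronal sum was 0.948 to 1.05 in FC_WT, 0.766 to 0.983 in DG and 1.003 to 1.09 in TH, against 0.645 to 1.20 elsewhere. Its members were Gap43, Reln and the granule cell gene Gabra6, which had its lowest mean in GCL. TH F4 had a neuronal sum of 1.09, the highest of TH. Within DG the neuronal sum was 0.766 to 0.937 in F7 to F9 and 0.961 to 0.983 in F3 and M2. None of these markers was at 0, and their part in the Sgce result was not tested.

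Of 65 listed imprinted mouse genes the array held Plagl1 and Calcr beside Sgce. Plagl1, a paternally expressed zinc finger transcription factor gene on chromosome 10, was also above 0.5 on average, with a beta of 0.648 ± 0.051 over the 53 samples (SD). Its regional means ran from 0.614 in CPU to 0.678 in DG, and the regions were not called (limma adjusted p = 0.526). In TH F4, the sample with the lowest Sgce value, Plagl1 had 0.727, against 0.570 to 0.729 in the other TH samples. In DG F7 to F9 it averaged 0.715, against 0.624 in DG F3 and M2.

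Calcr, the calcitonin receptor gene, was the only other gene on the array within 2 Mb of Sgce in the RefSeq table. Its beta was 0.232 ± 0.114 over the 53 samples (SD), with regional means from 0.0974 in PC to 0.395 in HYP. The regions differed (limma F-test, adjusted p = 3.92e-12), over a span of 0.297, against 0.144 at Sgce. TH F4 had 0.316 at Calcr, above the other TH samples (0.216 to 0.275), while at Sgce it was the lowest.

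Of 15 listed genes of the sarcoglycan and dystrophin complex only Sgce was on the array. Of 25 dystonia genes the array held Drd2 and Drd5, which encode dopamine receptors, beside Sgce. Both were little methylated, with a mean beta of 0.0957 at Drd2 and 0.116 at Drd5. Drd2 differed between regions (0.0627 in FC_WT to 0.121 in PC, limma adjusted p = 4.57e-06), and Drd5 was not called (limma adjusted p = 0.174).

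The 5 CpGs nearest to Sgce in mean beta lay in Ghrhr, Gfap, Dld, Cysltr2 and Tbxa2r, with means of 0.669 to 0.678. Ghrhr, the receptor gene for growth hormone-releasing hormone, varied least between regions, with means from 0.631 to 0.707 and no call (limma adjusted p = 0.410). Gfap, the astrocyte filament gene, ran from 0.469 in DG to 0.805 in TH, and Tbxa2r, the thromboxane receptor gene, from 0.463 in DG to 0.813 in CPU. Dld, a subunit gene of mitochondrial dehydrogenases, ran from 0.605 in TH to 0.743 in GCL. Cysltr2, a leukotriene receptor gene, ran from 0.541 in CPU to 0.743 in GCL. The SD over the 53 samples was 0.053 to 0.149 at these 5 CpGs and 0.044 at Sgce.

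**Figure D3:**
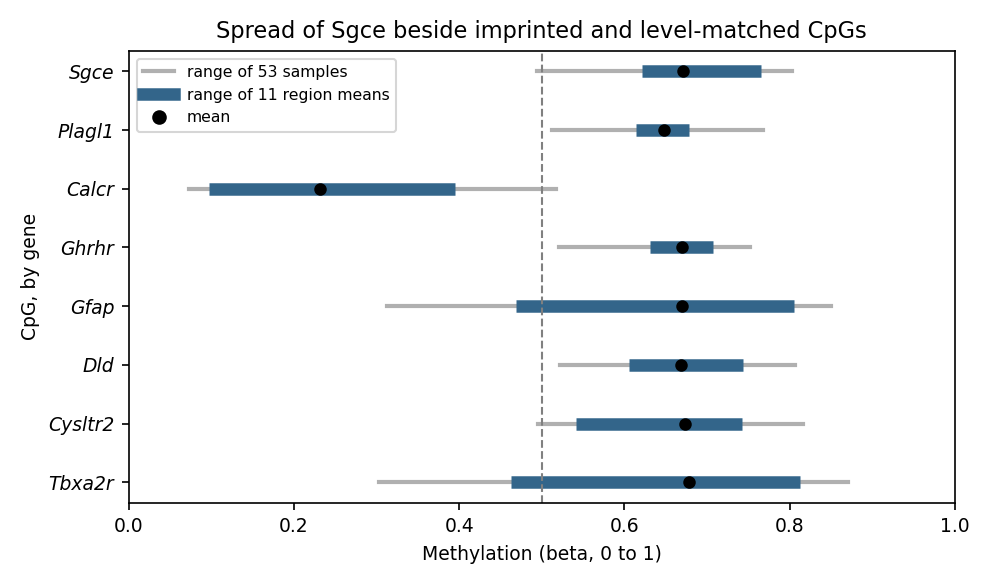
Beta (horizontal axis, 0 to 1) of Sgce, the other imprinted genes on the array and the 5 CpGs nearest to Sgce in mean level; thin lines span the 53 samples, thick lines the 11 regional means, points are means and the dashed line marks 0.5. Regional means of Sgce run from 0.621 to 0.765, and those of Gfap from 0.469 to 0.805.

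The pattern of Sgce over the 11 regional means was most like that of Pcdh11x (Pearson r = 0.94), Fshb (0.88), Gabre (0.87), Chrm1 (0.83) and Cntn5 (0.83), and most opposite to that of Hcrtr2 (-0.94), Nkx6-2 (-0.93) and Chrm2 (-0.92). The 11 points share the arrays and their normalization, and no p is given. With FC_WT, DG F7 to F9, TH F4 and GP M3 left out, r over 10 regions was 0.45 for Pcdh11x, 0.78 for Fshb, -0.31 for Gabre, 0.54 for Chrm1 and -0.16 for Cntn5. It was then -0.33 for Hcrtr2, -0.69 for Nkx6-2 and 0.42 for Chrm2. Of the 5 most alike, Fshb, the follicle-stimulating hormone beta subunit gene, was the only one called between regions (limma adjusted p = 0.0282), with a beta of 0.902 in FC_WT, 0.902 in DG and 0.833 in TH. Pcdh11x and Gabre are X-linked.

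In the frontal cortex Sgce was lower in every 3TG sample than in both wild-type samples, but the difference was not called. FC_3TG samples had a beta of 0.687, 0.718 and 0.724, against 0.772 and 0.758 in FC_WT. The means were 0.710 ± 0.020 in FC_3TG (SD, n = 3) and 0.765 ± 0.010 in FC_WT (SD, n = 2). The log2 difference was -0.41 (SE 0.21, 95% interval -0.83 to 0.01), with a limma adjusted p of 0.829 (unadjusted 0.0543). Samples of the groups did not overlap, as held for 29.8% of all CpGs, and 1.31% of CpGs were called (5, with 23 at an unadjusted p under 0.05). All 3 FC_3TG samples still lay above the mean of each region other than FC_WT and DG. Plagl1 had 0.626 in FC_3TG and 0.630 in FC_WT, and Calcr had 0.124 in FC_3TG and 0.120 in FC_WT. The single CA1_3TG sample had 0.754 at Sgce and has no wild-type counterpart here.

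Sgce was not called for the code letter, while most X-linked CpGs were. Its mean was 0.674 ± 0.050 (SD) over the 28 samples with an F, the 3TG samples left out, and 0.659 ± 0.023 (SD) over the 23 with an M. The log2 difference within regions was 0.06 (SE 0.07, 95% interval -0.08 to 0.20), with a limma adjusted p of 0.991. Without DG F7 to F9 the difference was 0.03, with a limma adjusted p of 0.994. The same codes recur across regions and the fit counts their samples as independent, so the SE may be too small. Of all CpGs 3.93% were called for the letter, all of them X-linked: 15 of 17 X-linked CpGs, 1 higher and 14 lower in F-coded samples, and 0 of 365 autosomal CpGs. At an unadjusted p under 0.05, 30 CpGs differed, 13 of them autosomal. After quantile normalization of the arrays Sgce was called higher in F-coded samples (0.23, adjusted p = 0.0392). In that setting 36 CpGs were called for the letter, in either direction, and it was not run without DG F7 to F9.

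The letter's difference at Sgce was not called as varying between regions (limma interaction F-test, adjusted p = 0.590). That test called 0% of CpGs, with 71 at an unadjusted p under 0.05. Sgce averaged 0.665 in the 25 regional samples coded F1 to F4, 0.752 in DG F7 to F9 and 0.659 over the M-coded set.

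**Figure D4:**
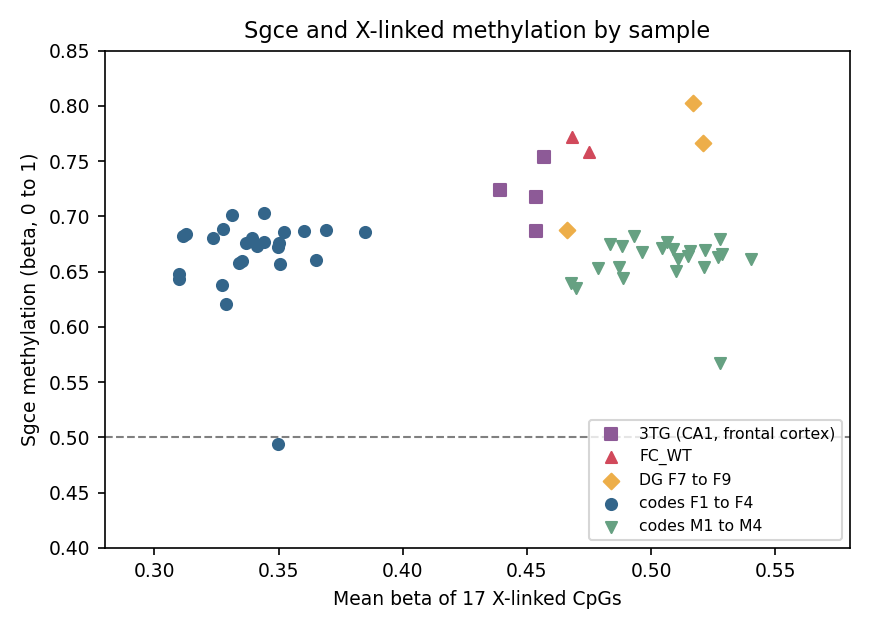
Beta of Sgce (vertical axis) against the mean beta of the 17 X-linked CpGs (horizontal axis) in each of 57 samples; the dashed line marks 0.5. Samples of the 10 regions coded F1 to F4 lie between 0.310 and 0.385 on the X-linked axis and M-coded samples between 0.468 and 0.540, and DG F7 to F9 at 0.466 to 0.521; on the Sgce axis the sets F1 to F4 and M overlap.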

How the data were processed

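Genomic DNA from mouse brain was extracted with phenol, converted with bisulphite and read on a custom GoldenGate array with Cy3 and Cy5, per the series' design text and the labels' protocols. The authors deposited beta values, a fraction of methylated signal from 0 to 1 per CpG and array. The sources used here do not give their background correction or normalization. The 58 arrays gave 57 samples, since CPU M4_a and M4_b (r = 0.987 over CpGs, other CPU pairs 0.966 to 0.997; Sgce 0.682 and 0.626) were averaged. The table is complete, with values of 0.0196 to 0.986. Bead numbers behind a value were not used here, so precision rests on the number of arrays.

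Beta was limited to 0.01 to 0.99, turned into log2(beta/(1 - beta)) and fitted with limma 3.58.1 in R 4.3.3 on the whole table, with region as the factor, empirical Bayes moderation, two-sided tests and Benjamini-Hochberg adjustment over 382 CpGs; an adjusted p under 0.05 is a call. Pairs of regions and the tests against 0.5 were adjusted over CpGs and contrasts together. The 3TG contrast used all 57 samples in 13 groups, and the letter and interaction fits the 51 samples with a lettered code outside 3TG. Of the gene names, 362 matched a RefSeq symbol and 20 a synonym. The fits were run on simulated data whose noise was independent between samples, so that run does not cover correlation between samples of the same code. Genes named are Sgce, genes of the lists on the array, the 5 most alike and 3 most opposite CpGs, the 5 nearest in mean beta and those within 2 Mb; Gabra6 is named as a marker. The members and lists were chosen with earlier results of these data known. Alternatives were other scales, limits, normalizations, filters, covariates, a replicate block and left-out samples. Settings that leave out TH F4 and GP M3, or FC_WT alone, were added after seeing the data.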

Additional observations from a re-analysis of the deposited data

Results flagged for a closer look

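At Sgce, 2 of the 10 groups of 4 to 10 samples held a sample far from the others by Dixon's criterion, which chance meets in about 1 in 20 groups. TH F4 had a beta of 0.494, against 0.640 to 0.671 in the other TH samples, and its gap to the nearest sample was 0.824 of the range of the group. GP M3 had 0.568, against 0.659 to 0.676 in the other GP samples, with a gap of 0.844 of the range. For 5 samples the critical value is 0.710. The same criterion was met at 3 CpGs (0.785%) for TH F4 and at 10 CpGs (2.62%) for GP M3, where the median over samples was 3 CpGs and the highest 36. The arrays correlated with the mean of their region over all CpGs at r = 0.987 for TH F4 and 0.978 for GP M3, against a median of 0.992 and a lowest value of 0.974 over the samples.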

How the results depend on the processing

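Under 71 alternatives, and further ones added after seeing the data, 1780 of 1803 recomputed values of 27 results stayed on the same side of their threshold or within 1.5 times of the count, and no called value changed sign. Among uncalled regional contrasts the sign held in 49 of 68 settings for SN, 61 for PC and for GCL, 62 for CA3, 63 for BLA and 67 for GP. All 732 values of the regional levels stayed called above 0.5 (highest adjusted p 2.33e-05); centring the arrays was not run for these, since it removes the level.

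The cause of the changes was not tested. Without FC_WT and DG F7 to F9 the F-test had an adjusted p of 0.335, 0 of 45 pairs were called by limma (6 at an unadjusted p under 0.05), and the log2 differences from the other regions were 0.15 for DG and -0.29 for TH. With FC_WT, DG F7 to F9, TH F4 and GP M3 left out these were 0.535, 0 pairs (1 at an unadjusted p under 0.05), 0.11 and -0.11, and without TH F4 and GP M3 alone TH stood at -0.21. Without FC_WT alone 4 of 45 pairs were called and TH stood at -0.32, and with the code letter as a covariate, also without FC_WT, 4 pairs were called and TH stood at -0.31. Quantile normalization gave an F-coded minus M-coded difference of 0.23. Leaving out single samples gave 6 to 18 called pairs, and log2 differences of 0.63 to 0.75 for FC_WT, 0.23 to 0.47 for DG and -0.46 to -0.20 for TH.

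With the sample code as a replicate block (without FC_WT) the F-test had an adjusted p of 0.448, 0 pairs were called (5 at an unadjusted p under 0.05), and DG stood at 0.19 and TH at -0.30. All DG samples but F3 have codes found in no other region, so this fit cannot test the rise of DG. The labels do not say that a code marks the same animal. Deviations from regional means correlated at a median r of 0.332 in 149 same-code pairs (116 over 0.1, lowest -0.549) and -0.0702 in 1019 other pairs, and 18 of 51 samples correlated best with their own code. These r cover all CpGs, X-linked ones included, and same-code pairs always share the letter. They therefore cannot tell a shared code from a shared letter. As a random block the code correlation was -0.0179 in the 3TG fit and 5.45e-05 in the letter fit.

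The number of CpGs called over the array moved more than 1.5 times in some settings. It was 170 in the F-test and 111, 105 and 107 in the first, the blocked and the 46-sample setting. Its range was 0 to 132 for DG (92 as reported), 13 to 35 for TH (27), 52 to 144 for FC_WT (121), 62 to 199 for PC (178), 1 to 21 for CA3 (8), 13 to 32 for BLA (26), 31 to 59 for HYP (38), 36 to 74 for SN (57), 0 to 1 for GP (0), 1366 to 3505 for pairs (2939), 1 to 8 for 3TG (5), 0 to 36 for the letter (15) and 0 to 57 for the interaction (0). The 3TG difference was not called in any setting (adjusted p 0.259 to 0.997). FC_WT rests on 2 arrays, which limits its precision.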
